A study of Mus musculus with 3 samples.

Results

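The interferon response genes described here were 42 genes of the mouse lung whose symbols follow a set pattern: the Ifit, Ifitm, Oas, Gbp and Irf families, and further genes such as Isg15, Mx1, Stat2, Usp18, Rsad2 and Bst2. They were taken by symbol from the 21507 genes that the cell and the nucleus count tables share. No measured value picked a single gene, but the pattern was chosen with earlier results of these data known. The pattern also takes in genes that are not known mainly for a response to interferon, such as Ifitm5. The study profiled wild type C57Bl/6J lung by 10x Chromium 3' v3 droplet sequencing of whole cells and of isolated nuclei. The cell group was 1 library of cells from fresh lung, dissociated with collagenase and DNAse at 37 °C and by machine, with dead cells removed over an Optiprep gradient. The nucleus group was 2 libraries of nuclei from snap-frozen lung of adult mice, released mechanically in Nuclei EZ Lysis buffer with protease and RNase inhibitors. The labels name no infection and no interferon treatment, and do not state sex, or the age of the mice behind the cells. Cells and nuclei also differed in fresh against frozen tissue, and in enzyme digestion against lysis, and these effects cannot be told apart.

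Interferons are secreted proteins that bind receptors on the cell surface. The receptors act through JAK kinases on transcription factors of the STAT family, which move into the nucleus, either with IRF9 to bind interferon-stimulated response elements (ISRE) or as dimers to bind gamma-activated sites (GAS), and switch on genes whose products block viruses. In lung this system protects the airway and alveolar lining against respiratory viruses, and a low tonic level of many of its genes is found without infection.

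The promoters of 5 genes are shown because the results turn on the levels of these genes, and because they hold the letters by which interferon-activated factors are known to bind. Each is the 250 bases before the transcript start on the gene's own strand, 5′ to 3′, from RefSeq (GRCm38.p6). Capitals mark every match to the ISRE core GAAANNGAAA (or TTTCNNTTTC, its reverse complement) and to the GAS letters TTCNNNGAA (their own reverse complement), with overlapping matches joined. Isg15 encodes a ubiquitin-like protein joined to other proteins, and its window (chr4:156200819-156201068, minus strand) held 3 overlapping ISRE cores. Bst2 encodes tetherin, which holds budding viruses at the cell surface, and its window (chr8:71537473-71537722, minus strand) held a GAS match overlapping the first of 2 ISRE cores. Gbp2 encodes a GTPase that attacks pathogen-containing vacuoles, and its window (chr3:142620413-142620662, plus strand) held 1 ISRE core. Ifit1 encodes a protein that binds viral RNA caps, and its window (chr19:34640639-34640888, plus strand) held 2 separate ISRE cores. Irf1 encodes a transcription factor induced by interferon gamma, and the window of its first listed start (chr11:53769764-53770013, plus strand) held 1 GAS match and no ISRE core.
Isg15: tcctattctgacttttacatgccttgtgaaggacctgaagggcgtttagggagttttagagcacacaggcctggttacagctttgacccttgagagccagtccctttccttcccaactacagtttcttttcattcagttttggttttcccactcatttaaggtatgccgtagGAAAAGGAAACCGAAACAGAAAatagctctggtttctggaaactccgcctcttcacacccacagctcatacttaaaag
Bst2: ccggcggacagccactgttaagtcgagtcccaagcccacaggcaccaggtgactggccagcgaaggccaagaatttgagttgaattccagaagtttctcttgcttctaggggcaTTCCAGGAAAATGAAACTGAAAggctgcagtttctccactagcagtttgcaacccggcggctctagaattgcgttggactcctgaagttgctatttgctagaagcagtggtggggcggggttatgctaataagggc
Gbp2: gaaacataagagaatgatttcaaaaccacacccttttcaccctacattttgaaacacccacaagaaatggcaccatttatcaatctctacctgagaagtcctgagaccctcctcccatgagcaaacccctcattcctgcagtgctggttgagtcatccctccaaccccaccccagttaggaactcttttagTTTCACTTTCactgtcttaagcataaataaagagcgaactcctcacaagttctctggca
Ifit1: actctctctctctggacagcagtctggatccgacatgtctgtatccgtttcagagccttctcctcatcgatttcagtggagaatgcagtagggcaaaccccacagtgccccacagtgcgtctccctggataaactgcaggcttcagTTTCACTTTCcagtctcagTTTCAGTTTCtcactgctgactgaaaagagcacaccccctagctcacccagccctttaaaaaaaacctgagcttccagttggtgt
Irf1: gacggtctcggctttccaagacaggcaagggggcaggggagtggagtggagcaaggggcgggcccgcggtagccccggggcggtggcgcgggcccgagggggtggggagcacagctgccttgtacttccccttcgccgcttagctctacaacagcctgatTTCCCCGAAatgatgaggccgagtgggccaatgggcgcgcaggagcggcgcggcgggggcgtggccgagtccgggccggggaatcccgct

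Promoter windows of 250 bases before and 50 bases after the start were found for 36 of the 42 genes. Of these, 20 genes (55.6%) held an ISRE core on either strand, against 3.99% of all 27025 genes with a window, or 3.44% of all 32851 windows. The GAS letters were in 9 of the 36 genes (25%), against 9.55% of all genes and 8.30% of all windows. Both were in Bst2, Gbp5, Gbp7, Ifitm3, Irf2 and Oas1a. A match describes the letters of the window and is not evidence of a bound site.

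The 42 genes lay on 14 chromosomes, and most genes of the Ifit, Ifitm, Oas and Gbp families stood side by side, while the 8 Irf genes were spread over 7 chromosomes (GRCm38, GENCODE M21). The 6 Ifit genes occupied chromosome 19 from 34550694 to 34650009, 5 Gbp genes chromosome 3 from 142493978 to 142638008, 4 Ifitm genes chromosome 7 from 140948958 to 141017924 and 7 genes of Oas1 to Oas3 chromosome 5 from 120730333 to 120907521. Near-identical neighbours can split reads, so levels of Ifit3 and Ifit3b, of Ifit1, Ifit1bl1 and Ifit1bl2, of the Oas1 copies and of Gbp2 and Gbp2b are uncertain one against another. In all, 12 of the 42 genes overlap another gene of the tables, among them Irf1, Irf2, Irf5, Irf7 and Usp18 on the opposite strand and Irf9 on the same strand, and whether counting used strand is not given in the sources used here.

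The libraries were of similar depth: 35962788 counts over 11934 cells (median 2864 per barcode), and 28062109 and 27148272 counts over 6849 and 9806 nuclei (medians 4152 and 2521). The labels do not say that libraries came from separate animals. The female transcript Xist was at 285 CPM (counts scaled to the library's total) in the cell library and 1022 and 9.62 CPM in the nucleus libraries, and the Y-linked Uty at 1.03 CPM in cells and 0.938 and 269 CPM in nuclei, so the nucleus libraries did not come from 1 and the same animal. With 3 libraries, 1 degree of freedom was left for the spread, which comes from the nucleus pair and is assumed to hold for the cells too. The edgeR fits also borrow the spread of other genes, separately in each fit. Very small p-values rest on that borrowing and not on replicates, and p-values of different classes cannot be compared. The p-values measure only the spread between these samples.

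Over whole libraries, more of the interferon response genes were higher than lower in cells. Of the 40 genes with enough counts to test, 16 were higher in cells, where 16.4% of all 19806 genes tested were, and 2 were lower, where 8.42% of all genes were (edgeR quasi-likelihood test, Benjamini-Hochberg adjusted p under 0.05). The median log2 fold of cells over nuclei was 1.07 over the 40 genes and -0.03 over all genes, and 33 of the 40 folds were above 0. The untested genes were Oas1f, with 8 counts in cells and 4 and 7 in nuclei, and Ifitm7, with 4 counts in cells and 2 and 4 in nuclei. Levels below are CPM scaled by trimmed mean of M-values (TMM). In sums over a whole library, a larger share of a cell type and more RNA per cell cannot be told apart.

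The Ifitm genes, which encode small membrane proteins that block virus entry, stood out by size. Ifitm3 was at 716 CPM in cells, against 63.7 and 48.4 CPM in the nucleus libraries, a log2 fold of 3.68 ± 0.37 (SE, adjusted p = 0.00441). Its neighbour Ifitm6, known from bone marrow and myeloid cells, was at 56.3 CPM in cells and at 0.257 and 0.838 CPM in nuclei (1870 counts against 7 and 25, log2 fold 6.66 ± 0.60, adjusted p = 0.00415). Both were far above the nuclei, and leaving out a nucleus library moved the Ifitm6 fold between 6.03 and 7.67. Ifitm1 was at 51.5 CPM in cells and 17.2 and 6.30 CPM in nuclei (log2 fold 2.13 ± 0.56, adjusted p = 0.0385). The 2 nucleus libraries differed nearly as much from each other as the nearer one did from cells, and the fold was 3.02 without replicate 1 and 1.57 without replicate 2. Ifitm5, known from bone, was at 3.55 CPM in cells and 0.881 and 0.570 CPM in nuclei (log2 fold 2.29 ± 0.65, adjusted p = 0.0484), and DESeq2 did not call it (adjusted p = 0.0795). Ifitm10 did not pass: it was at 61.9 CPM in cells, between the 67.7 and 16.7 CPM of the nucleus libraries, and its log2 fold was 1.87 without replicate 1 and -0.14 without replicate 2.

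Among the transcription factors, 5 of 8 Irf genes were higher in cells and none was lower. Irf1 was at 229 CPM in cells, against 34.4 and 39.8 CPM in nuclei (log2 fold 2.62 ± 0.31, adjusted p = 0.00470). Irf5, a factor of Toll-like receptor signalling in myeloid and B cells, was at 57.5 CPM in cells and 11.6 and 11.02 CPM in nuclei (log2 fold 2.34 ± 0.30, adjusted p = 0.00563). Irf7, the factor that drives interferon alpha production, was at 16.6 CPM in cells and 2.06 and 2.98 CPM in nuclei (log2 fold 2.72 ± 0.45, adjusted p = 0.0106). In each case both nucleus libraries lay close together and far below the cells. Irf4, a lymphocyte and dendritic cell factor, was at 32.1 CPM in cells and 5.25 and 5.83 CPM in nuclei (log2 fold 2.54 ± 0.34, adjusted p = 0.00635), and Irf9, the DNA-binding partner of STAT2, was at 48.9 CPM in cells and 14.9 and 14.8 CPM in nuclei (log2 fold 1.72 ± 0.30, adjusted p = 0.0121). Irf2, which competes with IRF1 for its sites, went the other way without passing the test, at 204 CPM in cells and 467 and 313 CPM in nuclei (log2 fold -0.94 ± 0.43, adjusted p = 0.159). Irf3, the factor that starts interferon beta transcription, was at 36.0 CPM in cells and 28.8 and 25.8 CPM in nuclei (adjusted p = 0.376).

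Stat2, whose protein joins IRF9 in the factor that binds ISRE sites, was at 82.9 CPM in cells, against 66.1 and 54.8 CPM in nuclei (log2 fold 0.46 ± 0.31, adjusted p = 0.319). The cell value lay above both nucleus values without passing the test.

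The antiviral effectors were mixed. Bst2 was at 109 CPM in cells and 19.7 and 17.8 CPM in nuclei (log2 fold 2.54 ± 0.29, adjusted p = 0.00464), and Isg15 at 19.1 CPM in cells and 1.98 and 2.92 CPM in nuclei (log2 fold 2.96 ± 0.45, adjusted p = 0.00811). Of the Oas genes, whose enzymes sense double-stranded RNA, Oas3 had 10.3 CPM in cells against 0.514 and 0.838 CPM in nuclei (342 counts against 14 and 25, log2 fold 3.92 ± 0.56, adjusted p = 0.00716). Oas1a had 15.9 CPM in cells against 4.59 and 3.35 CPM in nuclei (log2 fold 2.00 ± 0.43, adjusted p = 0.0221), and Oas1g 8.002 CPM in cells against 1.95 and 2.14 CPM in nuclei (log2 fold 1.97 ± 0.49, adjusted p = 0.0339). These 5 genes were several times higher in cells than in either nucleus library. Oasl2, at 35.5 CPM in cells and 29.9 and 25.5 CPM in nuclei, did not pass (adjusted p = 0.428), and neither did Oas2, Oas1c, Oas1h or Oasl1. Rsad2, which encodes viperin, was at 9.02 CPM in cells and 1.43 and 4.05 CPM in nuclei (edgeR, adjusted p = 0.108). Mx1 was at 4.15 CPM in cells and 2.64 and 2.81 CPM in nuclei (edgeR, adjusted p = 0.427).

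The Ifit genes were the family with both lower calls. Ifit2, an antiviral RNA-binding protein, was at 9.51 CPM in cells against 20.95 and 27.2 CPM in nuclei (log2 fold -1.34 ± 0.38, adjusted p = 0.0470). Ifit1bl2, an Ifit1-like gene, was at 1.84 CPM in cells against 6.97 and 10.8 CPM in nuclei (log2 fold -2.27 ± 0.56, adjusted p = 0.0330). Cells lay below both nucleus libraries for both genes. The 4 other Ifit genes did not pass, with Ifit1 at 11.7 CPM in cells and 6.72 and 5.29 CPM in nuclei (adjusted p = 0.141). Usp18, the protease that removes ISG15 and damps receptor signalling, was at 23.2 CPM in cells and 41.6 and 46.0 CPM in nuclei (log2 fold -0.92 ± 0.32, adjusted p = 0.0824), below both nucleus libraries without passing.

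Of the 6 Gbp genes, Gbp2 alone was called over whole libraries by edgeR, at 64.0 CPM in cells against 14.3 and 11.7 CPM in nuclei (log2 fold 2.30 ± 0.31, adjusted p = 0.00636). Gbp7 was at 86.2 CPM in cells and 41.5 and 22.3 CPM in nuclei, just short of the threshold (log2 fold 1.43 ± 0.42, adjusted p = 0.0509), and DESeq2 called it (adjusted p = 0.0362). Gbp8 was at 178 CPM in cells and 146 and 102 CPM in nuclei (log2 fold 0.52 ± 0.37, adjusted p = 0.327). All 6 folds were above 0.

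**Figure D1:**
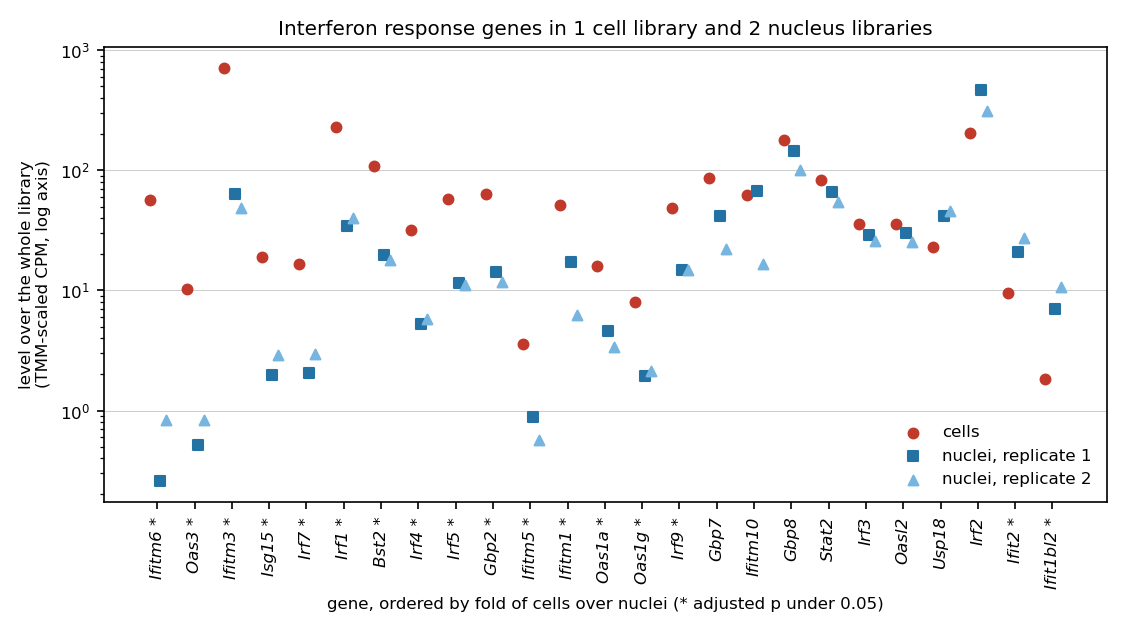
Level of the interferon response genes with full values over whole libraries (y axis, TMM-scaled CPM, log axis), ordered by fold of cells over nuclei; red circles are the cell library, dark squares and light triangles nucleus replicates 1 and 2, and a star marks an adjusted p under 0.05. The cell value lies below both nucleus values for Usp18, Irf2, Ifit2 and Ifit1bl2 on the right, between them for Ifitm10, and above both for the other genes shown.

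The genes called higher were shorter at the median than those not called, but were found at most lengths. All 7 of the interferon response genes under 5 kb from start to end were higher in cells (median log2 fold 2.72), where 30.7% of all 2606 genes of that length were, with a median of 0.99. From 5 to 10 kb, 2 of 7 were higher, near the 27.0% of all genes of that length, and the median log2 fold was 0.66 for the 7 genes and 0.74 for all genes. From 10 to 20 kb, 5 of 15 were higher, where 20.3% of all genes of that length were. From 20 to 50 kb, 2 of 9 were higher (12.2% of all genes), and neither of the 2 genes of 50 kb or more, Irf2 and Gbp8, was. The median length was 7410.5 bases for the 16 genes higher in cells, 15586 bases for those not called and 24710.5 bases for the pair that was lower, against 22535.5 bases for all genes tested. Fold and length had a Spearman correlation of -0.51 across the 40 genes and -0.33 across the 19654 genes with a length, as a description over genes that share the same 3 libraries. The part of gene length in the folds was not tested.

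**Figure D2:**
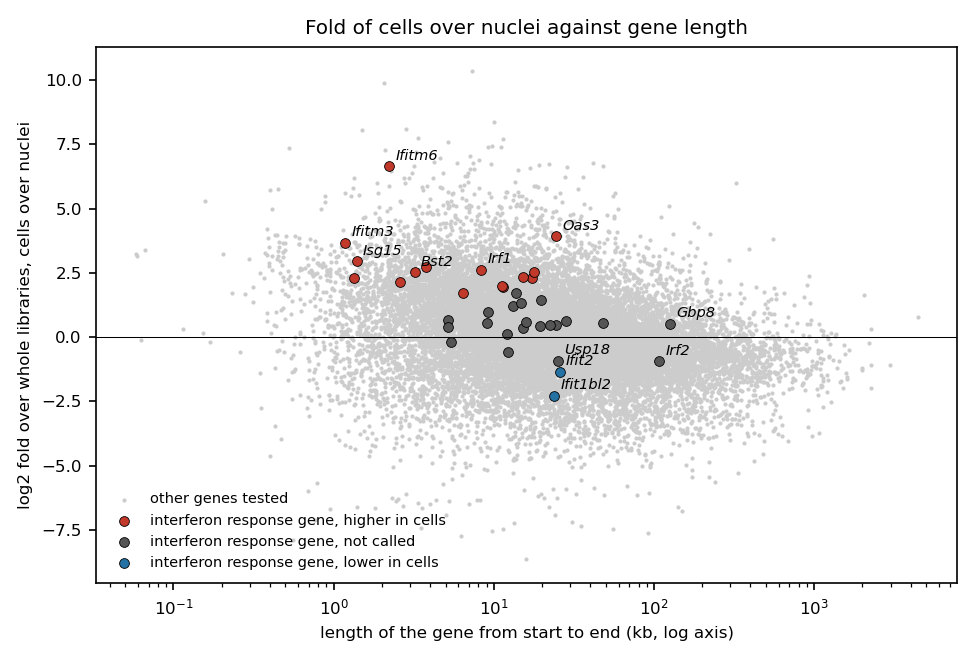
Log2 fold of cells over nuclei over whole libraries (y axis) against the length of the gene from start to end (x axis, kb, log axis); grey points are other genes, and large points the interferon response genes, red if higher in cells, dark grey if not called and blue if lower. The 7 members under 5 kb, such as Ifitm3, Ifitm6, Isg15 and Bst2, are all red and lie above most grey points, while Irf2 and Gbp8 at the right end are not called.

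Cell composition differed as well. Barcodes were clustered without the interferon response genes and named from lists of marker genes, so a class name here stands for clusters that resemble that type by those markers. There were 18 classes named in all 3 libraries and 9 named in cells alone, among them classical and non-classical monocytes, neutrophils and NK cells. The 9 held 2386 cells (19.99% of cell barcodes). They held 79.5% of the Ifitm6 counts of the cell library, 59.9% of Oas3, 52.4% of Irf5, 46.8% of Irf7, 42.2% of Oas1a, 41.4% of Oas1g, 40.7% of Ifitm5 and 40.3% of Ifitm3, against 19.1% of the counts of all genes. For the other 8 genes called higher in cells the share was between 16.3% and 29.0%, with Ifitm1 at 29.0%, Irf4 at 23.7%, Irf9 at 21.1%, Isg15 at 20.8%, Bst2 at 20.7%, Irf1 at 17.2% and Gbp2 at 16.3%. In nuclei, 3.77% and 4.85% of barcodes stayed in clusters without a name, and 2.96% of cell barcodes lay in clusters of mixed markers. One unnamed nucleus cluster, led by Adgre4 and closest to the classical monocyte markers, held 32 and 193 nuclei, and had Ifitm3 at 90.3 and 155 CPM but 2 and 1 counts of Ifitm6.

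Within cells, myeloid classes had the highest levels of several effectors. Classical monocytes led for Ifitm3 (2273 CPM of their summed counts, against a median of 456 CPM over 28 classes), Ifitm6 (393 CPM), Irf7 (63.9 CPM), Oas1a (57.4 CPM), Oas3 (55.6 CPM) and Oas1g (24.5 CPM). Neutrophils were second for Ifitm6 (299.6 CPM), Irf7 (46.8 CPM), Oas3 (38.3 CPM), Oas1a (55.3 CPM) and Oas1g (23.4 CPM), and first for Isg15 (44.6 CPM) and Rsad2 (40.4 CPM). Plasmacytoid dendritic cells, known as the main producers of interferon alpha, had Bst2 at 911.5 CPM, above the 177.5 CPM of general capillary endothelium, the next class. Basophils and mast cells had the highest Ifitm1, at 816 CPM (69 counts in 29 cells). With 1 cell library, these orders have no replicate check. The neutrophil class held 162 cells, and 1 count there was 2.13 CPM. Its levels of the Oas genes, Isg15 and Rsad2 therefore rest on few counts. For Oas1a and Oas1g the values of classical monocytes and neutrophils were too close to order.

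Of the Gbp genes, Gbp8, Gbp7 and Gbp5 were highest in endothelium, among the 18 classes shared by all libraries, in cells and in both nucleus libraries, and Gbp2 was not. Gbp8 was at 484.5 CPM in general capillary cells and 387 and 479 CPM in their nuclei, and at 468 CPM in venous cells and 367 and 618 CPM in venous nuclei. These were the 2 highest classes in cells and in nucleus replicate 1, and their order does not hold between the nucleus libraries. Gbp7 was at 203 CPM in general capillary cells and 95.6 and 59.1 CPM in their nuclei. Gbp2 was highest in mesothelium in cells and in nucleus replicate 2, at 193 CPM in mesothelial cells and 29.9 and 51.1 CPM in mesothelial nuclei, against 138 CPM in venous cells and 32.4 and 50.4 CPM in venous nuclei, so in replicate 2 these classes were close. In nucleus replicate 1 it was highest in plasma cells, at 33.3 CPM on 3 counts. Gbp3 was highest in endothelium in cells and in nucleus replicate 1, and in mesothelium in replicate 2. Gbp2b, with 15 counts in cells and 18 and 10 in nuclei over the shared classes, was highest in endothelium in none of the libraries. Gbp5 was at 66.3 CPM in venous cells and 60.4 and 39.5 CPM in venous nuclei, the highest of the 18 shared classes in all 3 libraries. Across the 18 classes, the order of Gbp8 levels had a Spearman correlation of 0.96 between the nucleus libraries, but of 0.33 and 0.32 between cells and each nucleus library.

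Type 1 pneumocytes, the flat cells of gas exchange, led for much of the Ifit family. Ifit2 was at 39.3 CPM in type 1 cells (21 counts) and at 65.8 and 77.7 CPM in their nuclei (115 and 322 counts), first among the 18 shared classes in every library. In nuclei, alveolar fibroblasts followed at 61.6 and 59.6 CPM and adventitial fibroblasts at 54.9 and 61.5 CPM, close enough that the order is within the spread of the nucleus libraries. Ifit3b was also first in type 1 pneumocytes in every library, at 22.4 CPM in cells and 17.2 and 15.2 CPM in nuclei. Ifit1 was first there in cells (37.4 CPM) and in nucleus replicate 1 (26.9 CPM). In replicate 2 it was at 16.4 CPM there (68 counts), after plasma cells at 24.9 CPM on 1 count. Ifit1bl2 was at 9.35 CPM in type 1 cells (5 counts) and 78.4 and 39.8 CPM in type 1 nuclei (137 and 165 counts), the highest class in both nucleus libraries. These neighbours on chromosome 19 can share reads, as stated above.

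Of the 18 shared classes, the same one was highest in all 3 libraries for 9 of the genes. Irf5 was highest in Xcr1 dendritic cells (302.5 CPM in cells, 167 and 129 CPM in nuclei) and Mx1 also (20.9 CPM in cells, 51.0 and 33.6 CPM in nuclei, on 17, 25 and 13 counts). Irf4 was highest in plasma cells (214 CPM in cells, 433 and 373 CPM in nuclei), where it is a known master regulator. Irf9 was highest in lymphatic endothelium (79.2 CPM in cells, 26.3 and 35.7 CPM in nuclei), but on 15 counts in cells and 4 and 6 in nuclei. The order of its 18 classes had a Spearman correlation of only -0.02 and 0.29 between cells and each nucleus library and 0.33 between the nucleus libraries. Oasl2 was highest in mesothelial cells (113 CPM in cells, 111 and 110 CPM in nuclei). Oasl2 in mesothelium differed by less between cells and nuclei than between the first and the next class. Ifitm3 was highest in another class in each library, venous endothelium in cells and T cells and B cells in nuclei. Its lowest class in nucleus replicate 1 was at 44.0 CPM and its highest at 105 CPM, and its Spearman correlation across the 18 classes was -0.07 and 0.16 between cells and each nucleus library and 0.43 between the nucleus libraries.

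**Figure D3:**
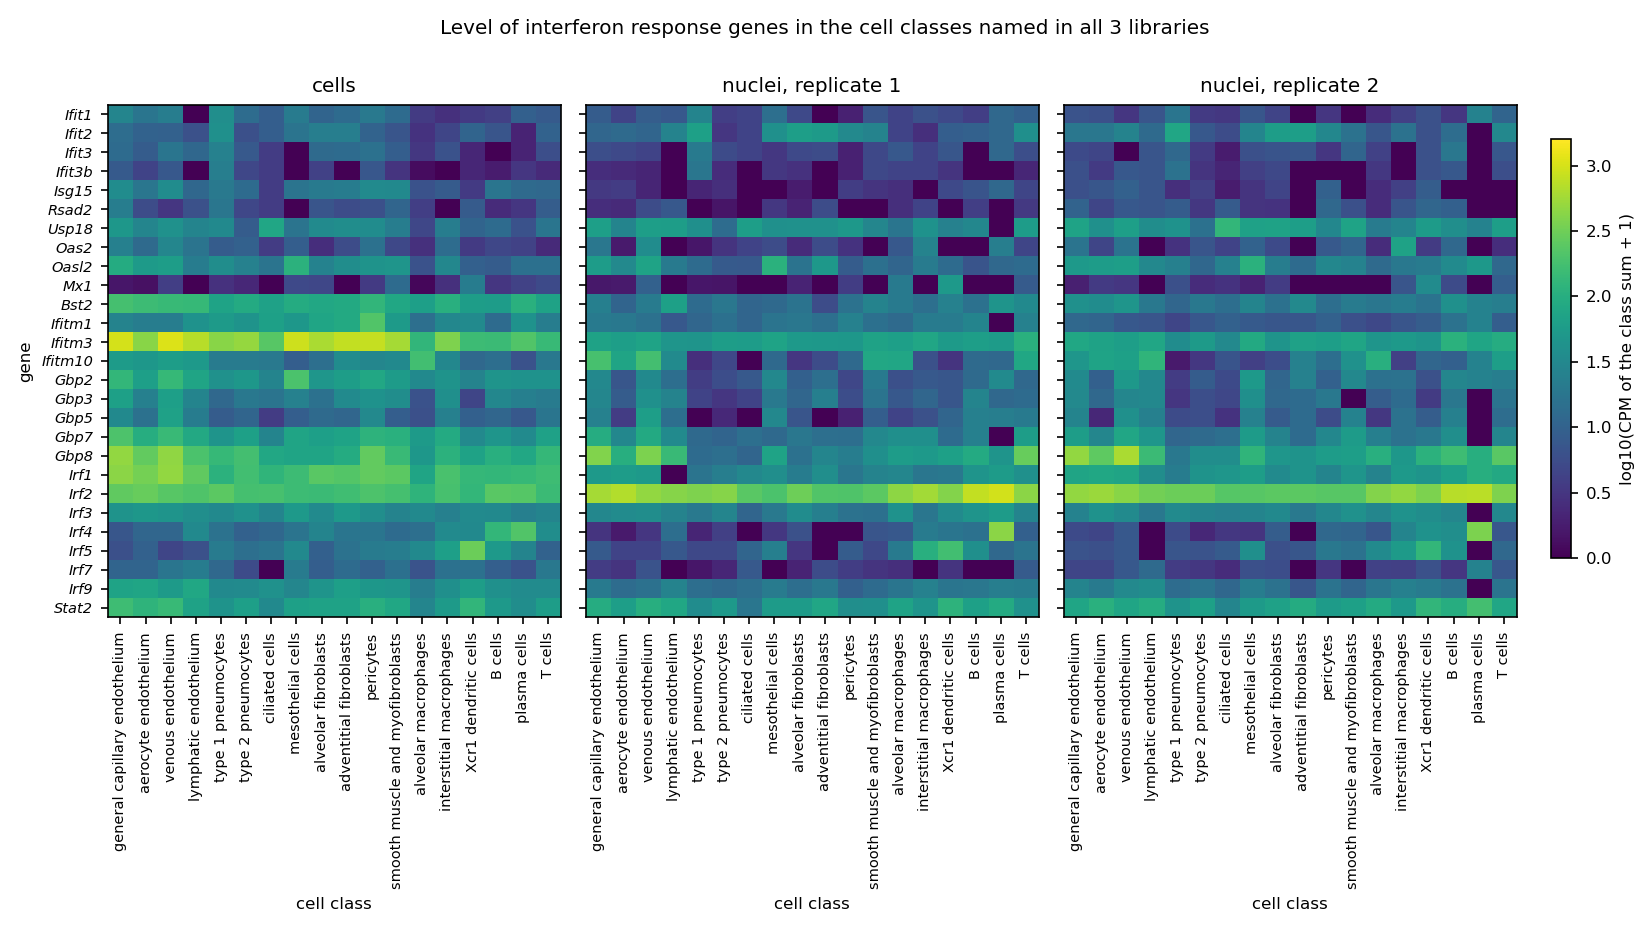
Level of 27 interferon response genes (rows) in the 18 classes named in all 3 libraries (columns), as log10 of CPM of the class sum plus 1, with cells on the left and nucleus replicates 1 and 2 to the right. The row of Ifitm3 is brighter in cells than in nuclei, by little in T cells and, against replicate 2, in B cells. That of Irf2 is brighter in nuclei, and Gbp8 is brightest in capillary and venous endothelium in all 3 panels.

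Comparing cells and nuclei within a class removes differences in class shares. A class was tested where each of the libraries gave it 50 or more barcodes, which held for 16 classes. In these, 363 pairs of an interferon response gene and a class could be tested: 114 were higher in cells and 9 lower, where 14.6% and 7.6% of all 171204 pairs of a gene and a class were (edgeR quasi-likelihood test, adjusted p under 0.05 within each class). DESeq2 called fewer, 40 higher and 2 lower of the 271 pairs to which it gave an adjusted p, where it called 6.62% of all genes' pairs higher and 2.97% lower. The class sums of 1 library share that library, so a gene called in many classes is not many independent results.

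Irf1 was higher in cells in all 16 classes by edgeR and in 10 of 16 by DESeq2, with log2 folds from 1.51 in ciliated cells to 3.56 in pericytes. In general capillary endothelium it was at 441 CPM in cells against 56.2 and 67.1 CPM in nuclei (log2 fold 2.84 ± 0.38, adjusted p = 0.000436). Its order across the 18 shared classes in cells had a Spearman correlation of 0.16 and 0.23 with the nucleus libraries. Bst2 was higher in 14 of 16 classes (6 of 13 by DESeq2), with folds from 1.36 to 2.98, and was at 179 CPM in general capillary cells against 25.0 and 36.8 CPM in their nuclei (adjusted p = 0.000660). The cell value lay above both nucleus values in each of the 16 classes for Irf1 and for Bst2. Isg15 was higher in 7 of the 8 classes tested (1 of 6 by DESeq2), at 35.3 CPM in general capillary cells and 2.55 and 4.76 CPM in their nuclei (log2 fold 3.37 ± 0.50, adjusted p = 0.000729). In the nuclei of the 18 shared classes Isg15 had only 48 and 63 counts. Classes thus entered its test mainly through cells, and their number is not separate support.

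Ifitm3 was higher in cells in 14 of 16 classes (13 of 16 by DESeq2), and its fold varied by cell type. It was at 1139 CPM in venous cells against 73.9 and 59.4 CPM in venous nuclei (log2 fold 4.08 ± 0.43, adjusted p = 2.51e-18). In T cells it was at 178 CPM in cells against 101 and 84.8 CPM in nuclei (log2 fold 0.94), and in B cells at 181 CPM in cells against 62.0 and 101 CPM in nuclei (log2 fold 1.12), and neither passed. Ifitm1 was higher in 7 of 16 classes (1 of 10 by DESeq2), most in pericytes, at 208 CPM in cells against 27.8 and 8.68 CPM in nuclei (log2 fold 3.38 ± 0.51, adjusted p = 0.00303, 4.46 without nucleus replicate 1).

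Gbp2 was higher in 11 of 15 classes (4 of 11 by DESeq2) and Gbp7 in 9 of 15 (1 of 13 by DESeq2). Gbp2 was at 206 CPM in mesothelial cells against 32.1 and 51.6 CPM in mesothelial nuclei (log2 fold 2.24 ± 0.41, adjusted p = 0.00205, not called by DESeq2), and at 37.2 CPM in type 1 cells against 3.10 and 2.79 CPM in type 1 nuclei (log2 fold 3.65 ± 0.62, adjusted p = 0.00306). Gbp8, not called over whole libraries, was higher in cells in 5 of 16 classes (3 of 16 by DESeq2). It was at 172 CPM in type 2 cells against 14.7 and 33.9 CPM in type 2 nuclei (log2 fold 2.83 ± 0.42, adjusted p = 0.000393, 3.52 without nucleus replicate 2), and at 127 CPM in type 1 cells against 13.02 and 19.01 CPM in type 1 nuclei (log2 fold 2.94 ± 0.37, adjusted p = 0.000790). In general capillary endothelium, where Gbp8 was high in both preparations, it was not called.

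The lower calls were spread over several genes, and only Irf2 and Usp18 were called lower in more than 1 class. Such calls were rarer among these genes' pairs than the 7.6% of all genes' pairs. Irf2 was lower in cells in 3 of 16 classes, all of them mononuclear phagocytes: alveolar macrophages (152 CPM in cells against 425 and 350 CPM in nuclei, log2 fold -1.35 ± 0.31, adjusted p = 0.00855), interstitial macrophages and Xcr1 dendritic cells. In each of the 16 classes the cell value of Irf2 lay below both nucleus values. The Irf2 fold of a class differed from the mean fold of the other classes in 0 of 16 (edgeR, lowest adjusted p = 0.241). The calls therefore do not set these phagocytes apart. Usp18 was lower in 2 of 16 classes, T cells and alveolar macrophages, and its fold was below 0 in all 16, with the cell value below both nucleus values in 13. In T cells it was at 20.7 CPM in cells against 54.9 and 54.6 CPM in nuclei (log2 fold -1.40 ± 0.52, adjusted p = 0.0340). Ifit2 was lower in alveolar fibroblasts (21.7 CPM in cells against 66.4 and 58.1 CPM in nuclei, adjusted p = 0.0366) and below 0 in 10 of its 11 classes. Ifit1bl2 was lower in type 1 pneumocytes, at 8.44 CPM in cells against 84.9 and 41.8 CPM in nuclei (log2 fold -2.88 ± 0.68, adjusted p = 0.0159, -2.24 without nucleus replicate 1). Ifit1, beside it on chromosome 19, was higher in 3 of 7 classes (0 of 4 by DESeq2), among them general capillary endothelium at 27.7 CPM in cells against 8.12 and 5.20 CPM in nuclei (log2 fold 2.00 ± 0.47, adjusted p = 0.00939).

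Several genes called over whole libraries were called in no class. Oas1a was called in 0 of 5 classes, Irf7 in 0 of 7, and Oas3, Oas1g and Ifitm5 in 0 of 1 class each (edgeR). The unadjusted p was under 0.05 in 2 classes for Oas1a, 2 for Irf7 and 0 for the others, and DESeq2 called none of them in a class. The cell value still lay above both nucleus values in 7 of 7 classes for Irf7 (log2 folds 1.37 to 2.32). It did so in 5 of 5 for Oas1a (0.925 to 2.00) and in 1 of 1 each for Oas3, Oas1g and Ifitm5. Counts were low, and a class could enter the test through its cells alone. The missing calls therefore do not show that a difference is absent within classes. Irf4 was higher in B cells, at 157 CPM in cells against 14.8 and 34.5 CPM in nuclei (log2 fold 2.60 ± 0.49, adjusted p = 3.36e-06, 3.26 without nucleus replicate 2), in T cells and in alveolar fibroblasts. Irf5 was higher in Xcr1 dendritic cells, at 387 CPM in cells against 163 and 116 CPM in nuclei (log2 fold 1.47 ± 0.39, adjusted p = 0.00150), and in type 2 pneumocytes. DESeq2 called neither Irf4 nor Irf5 in a class. Irf9 was higher in 8 of 16 classes by edgeR and in 0 of 12 by DESeq2.

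**Figure D4:**
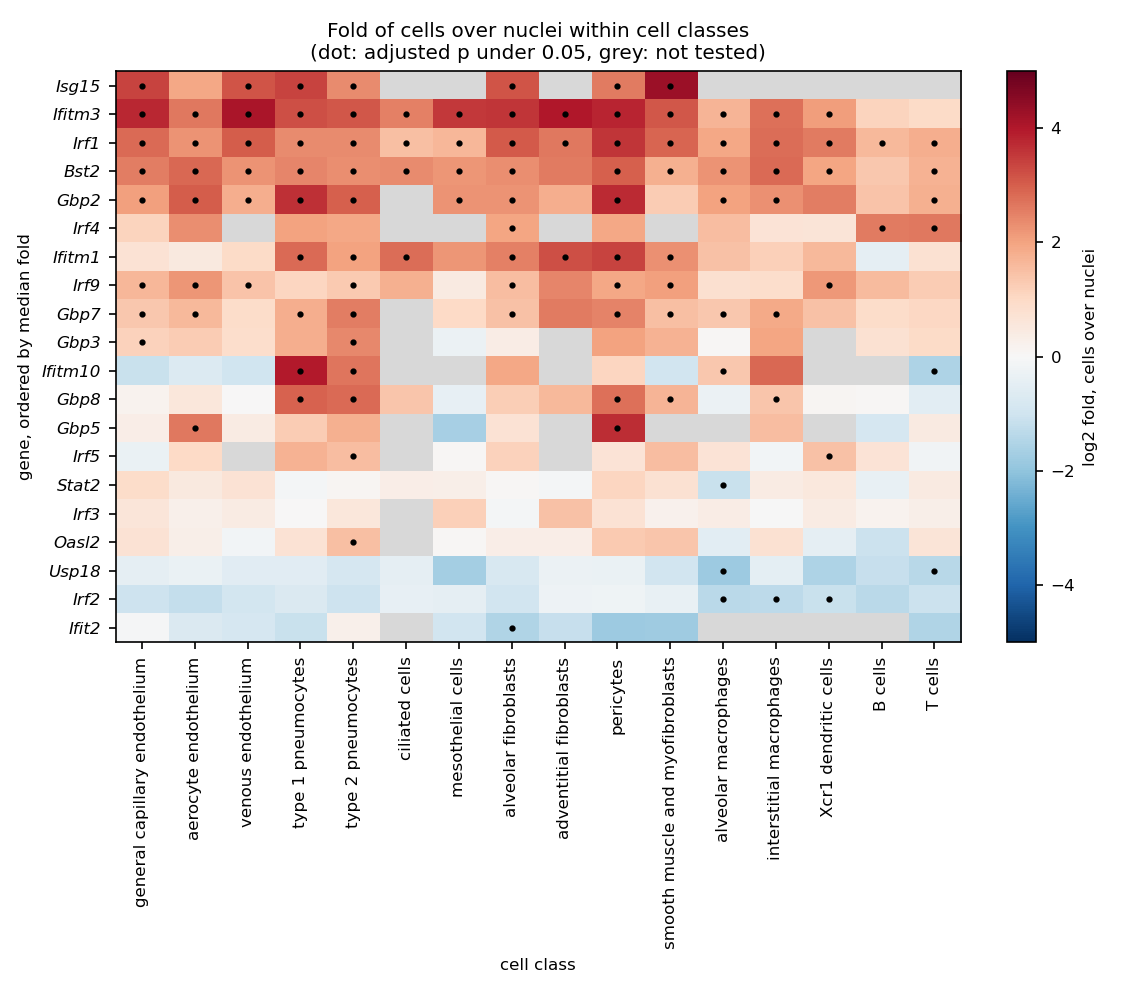
Log2 fold of cells over nuclei (color, red for higher in cells, blue for lower) of interferon response genes tested in at least 8 classes (rows, by median fold) within 16 cell classes (columns); a dot marks an adjusted p under 0.05 and grey a pair not tested. Irf1 has a dot in every class, Irf2 and Usp18 are blue throughout, and Gbp8 is reddest in type 1 and type 2 pneumocytes and pericytes.

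By class, the share of members higher in cells stood above the background of the class to different degrees. In type 2 pneumocytes 16 of 30 were higher, where 20.7% of all genes tested in that class were. Pericytes had 12 of 26 higher (10.1% of all genes), smooth muscle and myofibroblasts 8 of 19 (13.5%), ciliated cells 5 of 10 (13%) and interstitial macrophages 7 of 20 (14.6%). Type 1 pneumocytes had 10 of 31 higher (13.8%) and alveolar fibroblasts 9 of 30 (11.7%). In endothelium the counts were 10 of 35 in general capillary (13.7%), 7 of 26 in aerocyte (16.3%) and 6 of 24 in venous cells (14.8%). Xcr1 dendritic cells had 5 of 17 (17.4%), alveolar macrophages 6 of 19 (23.1%), mesothelial cells 4 of 18 (11.2%) and adventitial fibroblasts 3 of 15 (8.59%). The share was near the background in the lymphocytes, with 4 of 25 in T cells (14%) and 2 of 18 in B cells (11.3%). These are edgeR calls, and DESeq2 called fewer members higher in every class. It called 6 of 26 in type 2 pneumocytes, 6 of 19 in pericytes and 2 of 11 in smooth muscle and myofibroblasts. In ciliated cells it called 1 of 6, in Xcr1 dendritic cells 0 of 15, in T cells 0 of 18 and in B cells 0 of 15. Over all classes together, DESeq2 called 6.62% of all genes' pairs higher. The percentages above are edgeR shares. No DESeq2 share of all genes is at hand for a single class, so these counts cannot be set against a background of their class.

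Markers of other cell types moved with several of these classes. The sum of 9 markers of general capillary endothelium was more than 2 times both nucleus values in 6 of 15 other classes: type 2 and type 1 pneumocytes, pericytes, ciliated cells, interstitial macrophages and aerocyte endothelium. Over the 15 classes it ran between 519.9 and 7167 CPM in cells and between 204 and 6719 CPM in nuclei. A list of 12 neutrophil markers, 11 of them measured, was more than 2 times both nucleus values in 9 of 16 classes: type 2 and type 1 pneumocytes, pericytes, ciliated cells, smooth muscle and myofibroblasts, alveolar and adventitial fibroblasts, mesothelial cells and Xcr1 dendritic cells. Over the 16 classes it ran between 106 and 1547 CPM in cells and between 39.2 and 301 CPM in nuclei. A list of 8 classical monocyte markers was so in 0 of 16. In these classes every capillary and neutrophil marker measured was found in cells, except Cxcr2 in adventitial fibroblasts. In nuclei at most 1 of the 9 capillary markers (Glp1r or Aplnr) was at 0 in a class, and at most 6 of the 11 neutrophil markers, most often Trem1, Cxcr2, Mmp9 and Retnlg. The part of these markers in the counts per class was not tested.

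Of the 9 lower pairs, 3 were in alveolar macrophages, where 12.8% of all genes were lower, and they were Irf2, Stat2 and Usp18. T cells had 2 (8.5% of all genes lower), Usp18 and Ifitm10. Type 1 pneumocytes (6.2%), alveolar fibroblasts (4.03%), interstitial macrophages (7.76%) and Xcr1 dendritic cells (8.8%) had 1 each. DESeq2 called 2 of the 9, Irf2 in alveolar macrophages and Ifit1bl2 in type 1 pneumocytes. Without the filter on low counts, the edgeR calls of Irf2 in interstitial macrophages and Xcr1 dendritic cells, of Usp18 in T cells and of Ifit2 in alveolar fibroblasts were lost.

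Whether a fold in 1 class differed from the mean fold of the other classes was tested for 576 pairs of a gene and a class, and 11 passed, a share close to the 1.77% of all genes' pairs that did (edgeR, adjusted p under 0.05 within each class), so the number of such pairs does not set these genes apart. In the classes concerned, the share of all genes that passed was 4.87% in type 2 pneumocytes, 1.75% in type 1 pneumocytes, 0.708% in pericytes, 2.68% in T cells, 3.03% in B cells and 6.01% in alveolar macrophages. Gbp8 had a larger fold in type 2 pneumocytes (difference of log2 fold 2.18 ± 0.38), type 1 pneumocytes (2.08 ± 0.44) and pericytes (1.98 ± 0.42). Ifitm3 had a smaller fold in T cells (-1.98 ± 0.32), B cells (-1.76 ± 0.33) and alveolar macrophages (-1.14 ± 0.31). Gbp8 is high in general capillary endothelium, and markers of that class were higher in cells in the type 2, type 1 and pericyte classes. Their sum of 9 genes was 2267 CPM in type 2 cells against 279 and 430 CPM in type 2 nuclei. It was 1931 CPM in type 1 cells against 204 and 246 CPM in type 1 nuclei. In pericytes it was 4131 CPM in cells against 294 and 1099 CPM in nuclei. In these sums 1 of the 9 genes, Glp1r, was at 0 in the type 1 nuclei of replicate 1. The same sum in general capillary endothelium itself was 9235 CPM in cells and 8030 and 8451 CPM in nuclei; in T cells it was 744 CPM in cells against 701 and 1154 CPM in nuclei. The sum was also more than 2 times both nucleus values in ciliated cells, interstitial macrophages and aerocyte endothelium. There the Gbp8 fold did not differ from the mean fold of the other classes. The part of these markers in the Gbp8 result was not tested.

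Ifitm6, whose highest classes in cells were monocytes and neutrophils, was called higher in 3 classes of other cells on few counts: 14 counts in type 1 cells against 0 and 4 in nuclei, 12 in type 2 cells against 2 and 5, and 31 in pericyte cells against 0 and 1. The neutrophil markers summed to 1208 CPM in type 1 cells against 66.4 and 73.6 CPM in type 1 nuclei, and to 653 CPM in type 2 cells against 83.2 and 157 CPM in type 2 nuclei. In pericytes it summed to 672 CPM in cells against 61.8 and 164 CPM in nuclei, and in neutrophils themselves to 12405 CPM. Classical monocytes had the highest Ifitm6 in cells, at 393 CPM. The sum of their markers was more than 2 times both nucleus values in 0 of 16 classes. The part of either marker list in the Ifitm6 calls was not tested.

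Few barcodes held several effector transcripts at once. Each barcode was thinned to 1000 counts and scored for 11 genes: Ifit1, Ifit2, Ifit3, Isg15, Rsad2, Usp18, Mx1, Oasl1, Oasl2, Oas3 and Bst2. At least 4 of the 11 were detected in 12 of 11934 cells (0.101%, exact 95% interval 0.0520 to 0.176%, for counting error alone), in 0 of 6760 nuclei of replicate 1 (upper bound 0.0546%) and in 1 of 9553 nuclei of replicate 2 (0.0105%), where 253 nuclei were too shallow. Of the 12 cells, 6 were classical monocytes (0.743% of 807), 4 general capillary endothelium (0.303% of 1318), 1 a mesothelial cell and 1 a plasmacytoid dendritic cell, and the nucleus was a type 1 pneumocyte. In 81.8% of cells none of the 11 genes was detected at this depth. Without thinning, at least 4 of the genes were found in 90 of 11934 cells (0.754%), and in 14 of 6760 (0.207%) and 18 of 9806 (0.184%) nuclei.

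Other genes of the pathway, from lists of 67 measured genes, gave 27 higher in cells and 1 lower over whole libraries (of all genes, 16.4% and 8.42%). Among the ligands, Ifng was at 13.4 CPM in cells against 0.0734 and 0.235 CPM in nuclei (445 counts against 2 and 7, adjusted p = 0.00452, log2 fold 7.21 without nucleus replicate 2 and 5.73 without replicate 1). Of 9 receptors and kinases, Ifngr1, the interferon gamma receptor chain, was at 224 CPM in cells and 60.6 and 41.0 CPM in nuclei (log2 fold 2.14 ± 0.36, adjusted p = 0.0107). Ifnlr1, the receptor of interferon lambda, was the 1 lower gene, at 2.23 CPM in cells against 23.3 and 34.3 CPM in nuclei (log2 fold -3.69 ± 0.47, adjusted p = 0.00547). Of 13 sensors, 3 were higher: Zbp1, Tmem173 and Tlr7, with log2 folds from 1.78 to 2.96. Of 6 negative regulators 3 were higher, and Socs3, which blocks cytokine receptors, was at 91.4 CPM in cells against 2.86 and 3.32 CPM in nuclei (log2 fold 4.88 ± 0.32, adjusted p = 0.00250).

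The largest share was in the interferon gamma targets of antigen processing, where 8 of 11 were higher and none lower (of all genes, 16.4% and 8.42%). The chemokine gene Cxcl9 was at 14.95 CPM in cells against 0.367 and 0.369 CPM in nuclei (log2 fold 5.33 ± 0.51, adjusted p = 0.00437). The immunoproteasome gene Psmb8 was at 130 CPM in cells against 13.4 CPM in both nucleus libraries (log2 fold 3.28 ± 0.29, adjusted p = 0.00409). Of 26 other interferon-induced genes 10 were higher and none lower, among them Ly6e at 806 CPM in cells against 88.7 and 114 CPM in nuclei, Iigp1 at 352 CPM in cells against 56.3 and 36.7 CPM in nuclei, and Ifi27l2a at 120 CPM in cells against 15.3 and 14.3 CPM in nuclei.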

How the data were processed

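The authors deposited raw counts for each gene in each barcode, treated here as UMI counts. Alignment was to mm10 by STAR 2.5.3a, per the submitters' processing notes. The sources used here name neither the counting program nor the annotation, nor the treatment of intronic reads. How intronic reads were treated bears on any level in nuclei, whose RNA is largely unspliced.

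The genes described, the marker lists and the pathway lists were chosen with earlier results of these data known. Barcodes with at least 400 genes and at most 20% mitochondrial counts were kept, and 81 doublets (1.18%) were removed from nucleus replicate 1; in the other libraries the caller marked under 0.5% and was not used, so doublets stay there. Barcode sequences shared between pairs of libraries numbered 20 to 24. Each table was clustered with scanpy 1.11.5 (Python 3.11.15; Leiden resolution 1, leidenalg 0.10.2) on 2000 variable genes without the interferon response genes. A cluster needed 3 detected markers and a mean log2 marker score of 1.2 for a name; that minimum and the rule for mixed clusters were chosen after seeing the data.

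Counts were summed per library, and per library and class, and tested with the edgeR quasi-likelihood test (edgeR 4.0.16, R 4.3.3; TMM scaling, filterByExpr, cells over nuclei, Benjamini-Hochberg over all genes tested), with DESeq2 1.42.0 as an alternative. The difference between classes was tested over all class sums with class, class by preparation and nucleus library as terms. The fits were tested on simulated data with known folds. CPM without TMM scaling is given for levels by class, over classes with at least 20 barcodes. Cells are not replicates and were never tested as such. Any of the 42 genes could be named, except that some are not reported here by name or in the figures, though they stay in the counts and medians. Full values are given for the 15 with the highest mean level over whole libraries and for those called there, for at most 5 called genes per class, and for at most 6 called genes per pathway list, by largest fold. Gene lengths and positions are from GENCODE M21, promoters from RefSeq.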

Additional observations from a re-analysis of the deposited data

Results flagged for a closer look

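In 11 of 576 pairs of a gene and a class, close to the 1.77% of all genes' pairs that passed, the log2 fold of cells over nuclei differed from the mean fold of the other classes (edgeR, adjusted p under 0.05 within the class). The class sums of 1 library share that library, so these are not independent of one another.

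Gbp8 had a larger fold in type 2 pneumocytes (2.18 ± 0.38, SE, adjusted p = 0.000439), type 1 pneumocytes (2.08 ± 0.44, adjusted p = 0.00782) and pericytes (1.98 ± 0.42, adjusted p = 0.0207), and a smaller one in T cells (-1.65 ± 0.41, adjusted p = 0.0239). In T cells its level was 283 CPM in the nuclei of replicate 1, the third highest class there.

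Ifitm3 had a smaller fold in T cells (-1.98 ± 0.32, adjusted p = 0.000937), B cells (-1.76 ± 0.33, adjusted p = 0.00361) and alveolar macrophages (-1.14 ± 0.31, adjusted p = 0.0256). The last of these did not pass without the filter on low counts (-1.04, adjusted p = 0.0599).

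Ifitm1 had a larger fold in pericytes (1.93 ± 0.30, adjusted p = 0.00106) and a smaller one in B cells (-2.27 ± 0.47, adjusted p = 0.00653). Ifitm10 had a smaller fold in T cells (-2.52 ± 0.68, adjusted p = 0.0403), where it was at 22.5 CPM in cells against 75.99 and 54.6 CPM in nuclei. Stat2 had a smaller fold in alveolar macrophages (-1.35 ± 0.32, adjusted p = 0.0100), where it was at 34.5 CPM in cells against 67.5 and 78.9 CPM in nuclei, lower in cells within that class too.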

How the results depend on the processing

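Over whole libraries, 16 genes were higher and 2 lower in cells under DESeq2's size factors and with at least 1000 counts per barcode; without a filter on low counts 17 and 2 were, with Gbp7 added. DESeq2 called 16 and 2, 15 of the higher ones shared, with Gbp7 in and Ifitm5 out. The median log2 fold was 0.871 to 1.14 when a nucleus library was left out, against 1.07 with both. For the pathway genes it was 0.781 to 1.18, against 0.983. Within classes, the median over pairs was 1.00 to 1.15, against 1.18. DESeq2 called 40 pairs higher and 2 lower there, against 114 and 9, and with clusters at a resolution of 0.5 the lower pairs were 5. Of the pairs called by edgeR, 42 passed with DESeq2 too, and 64 had a DESeq2 adjusted p that did not pass. None of these changed sign. The remaining pairs, those of Ifitm6 among them, were given no adjusted p by DESeq2. The higher pairs were 104 to 131 under the other alternatives, one of which (clusters of low marker score added to their best class) was chosen after seeing the data. The cause of these changes was not tested. The share of barcodes with several effectors rests on its definition: with at least 3 genes it was 0.285% in cells and 0.0592% and 0.0628% in nuclei, against 0.101%, 0 and 0.0105% with 4, and with 2000 counts per barcode it was 0.392% in cells. No paired analysis was possible because there was 1 cell library and its label carries no replicate number. Depth limits low genes: Oas1h, Gbp2b, Oas1f and Ifitm7 had too few counts for any statement.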

Other observations

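Within classes, 85 of 142 pairs of a class and an interferon gamma target of antigen processing were higher in cells and 2 were lower, where 14.6% and 7.6% of all pairs of a gene and a class were (edgeR, adjusted p under 0.05 in each class). The pairs of 1 library share that library and are not independent. B2m, the light chain of class I antigen presentation, was higher in 16 of 16 classes (median log2 fold 2.91). Psmb8 was higher in 15 of 16 classes, Psmb10 in 14 of 16, Tap1, a peptide transporter of antigen presentation, in 12 of 15. Cxcl9 was higher in 5 of the 6 classes where it could be tested. With 10 and 11 Cxcl9 counts in the whole nucleus libraries, classes passed the count filter mainly through cells, so these calls add no separate support. Others of the 11 genes were called in few classes: Nlrc5 was higher in 4 of 16, the peptide transporter gene Tap2 in 0 of 14, and Ciita, the activator of class II antigen presentation, was higher in 1 and lower in 2 of 13.

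Of the 26 other interferon-induced genes, 83 of 342 pairs were higher (24.3%) and 3 lower, against 14.6% and 7.6% of all pairs of a gene and a class. Ly6e, a membrane protein that limits coronavirus entry, was higher in 16 of 16 classes (median log2 fold 2.60). The interferon-inducible GTPases Iigp1 and Igtp, which attack intracellular parasites, were higher in 12 of 16 and 11 of 13 classes. Of the 6 negative regulators, 26 of 89 pairs were higher (29.2%) and 2 lower, and Socs3 was higher in 16 of 16 classes (median log2 fold 4.76). Of 9 receptors and kinases, 29 of 126 pairs were higher (23.0%) and 3 lower, with Ifngr1 higher in 14 of 16. Of the sensors, 8 of 131 pairs were higher (6.11%), a share below the 14.6% of all pairs, and 0 lower. Of the ligands, Ifng was higher in the 3 classes where it could be tested and Ifnk in 0 of 1. Ifng had 2 and 7 counts in the whole nucleus libraries. A class therefore passed the count filter for Ifng only through its cells, and these calls add no separate support.

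Over these lists, 10 of 834 pairs were lower, in 6 genes. Ifnlr1 was lower in 3 of 8 classes (median log2 fold -2.44), Pias1, an inhibitor of STAT proteins, in 2 of 16, and Ciita in 2 of 13. Adar, which edits double-stranded RNA, was lower in 1 of 14, and Herc6 and Parp9 in 1 of 16 each.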
